A study of Mus musculus with 12 samples.

Results

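The tripartite motif (TRIM) genes encode E3 ubiquitin ligases and related proteins built from a RING finger, B-box zinc fingers and a coiled coil, usually followed by a C-terminal domain that picks the target. Here they were followed across 12 RNA libraries of IEC4.1, a cell line from newborn mouse intestine labelled as intestinal epithelial, wild type. Members were the rows whose gene symbol begins with Trim and a digit, except Trim25, which gave 49 of the 15002 genes listed. Each of 4 groups held 3 libraries: siR_Ctrl (a scrambled siRNA), siR_Ctrl + IFN-γ, siR_Nostrill (a pool of 3 siRNAs against the long noncoding RNA Nostrill) and siR_Nostrill + IFN-γ. The labels give 24 h for every library, and a figure legend of the study gives IFN-γ at 1 ng/ml for 4 h. All 4 groups were therefore transfected, and no untransfected library was used.

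IFN-γ binds its receptor at the cell surface, and the signal reaches promoters through short DNA elements, among them gamma-activated sequences (GAS) and interferon-stimulated response elements (ISRE). Several TRIM proteins restrict viruses or tune the sensing of nucleic acids and are made in larger amounts after interferon. Others, such as the chromatin corepressors of the family, are made in most cells without any stimulus. The comparison of libraries with and without IFN-γ asked which members belong to which kind in these cells, and the comparison of siR_Nostrill with siR_Ctrl asked whether their levels moved with the knockdown. The level of the targeted RNA was not analysed here, and the knockdown was therefore not checked.

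The libraries held from 17824306 to 19093204 reads assigned to genes. Of the epithelial markers, Krt8 had a median of 0.18 FPKM (fragments per kilobase of transcript, scaled to the mapped reads), Krt18 of 0.05 FPKM and Krt19 of 1.57 FPKM, and the other 4 of 7 were not analysed here. The 5 fibroblast markers were all listed, with Col1a1 at a median of 216 FPKM and Col1a2 at 156 FPKM, and the summed fibroblast markers ranged from 370.2 to 653.9 FPKM over the libraries. These levels go against an epithelial identity, and the cells are called IEC4.1 cells below. The immune marker Ptprc had a median of 0 FPKM, while Cd14 had 16.9 FPKM. The libraries also differed in the ratio of their summed TPM (the length-scaled measure with a fixed total per library) to their summed FPKM, from 1.26 to 1.75, and that ratio varied within every group.

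A count test across all 11900 genes that passed a filter on low counts (the quasi-likelihood test of edgeR, p-values adjusted by Benjamini and Hochberg, threshold 0.05) covered 40 of the 49 members. A member was called responsive where the IFN-γ effect, averaged over both siRNAs, passed that test, and constitutive where it was tested and did not pass. There were 12 responsive members, 28 constitutive members and 9 below the filter. Of the responsive members, Trim5, Trim34a and Trim34b passed the filter only through libraries with IFN-γ, where they are high. Their place among the tested members thus leaned on the change itself. All 12 were higher with IFN-γ and 0 were lower, which is 30% of the tested members beside 9.21% of all genes (6.81% higher and 2.4% lower). The median log2 fold change over the 40 members was -0.01 and that over all genes was -0.02, so the middle of the family lay near that of all genes. Other filters, scalings and tests, and leaving out single libraries, gave from 7 to 16 members. The covariate given for Trim56 in a later paragraph gave 17 of 40 members, beside 3579 of 11900 genes. A filter at a mean of 5 CPM called 7 of the 26 members it tested, beside 924 of 9868 genes. DESeq2's size factors in edgeR and limma on log2(FPKM + 1) called 11 each, and their shares of all genes are not given here. DESeq2 called 16 (38.1% of those it tested, beside 11.1% of all genes), adding Trim56, Trim11 and Trim30c as higher and Trim8 as lower. With the trend of fold change on transcript length removed there were also 16 (40%, beside 16.6% of all genes), adding Trim56 and Trim11 as higher and Trim8 and Trim16 as lower. A constitutive member is one without a call, and its interval, given below, says how large a change the data still allow.

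The responsive members that carry an ISRE core, written as GAAA, any 2 bases and GAAA on either strand, are shown first, since they include most of the strongly changed genes. The stretches below were read from RefSeq windows of GRCm38.p6 (250 bases before to 50 after each gene's start), 5′ to 3′ on the gene's own strand, and the capitals mark the matches. Trim21, chr7:102565433-102565499, minus strand, has 2 overlapping matches just after the start:
Trim21: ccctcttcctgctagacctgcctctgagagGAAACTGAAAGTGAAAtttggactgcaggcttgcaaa
Trim34a, chr7:104244437-104244506, plus strand, Trim5, chr7:104288116-104288185, minus strand, and Trim12c, chr7:104353339-104353408, minus strand, hold 1 match each, on the opposite strand:
Trim34a: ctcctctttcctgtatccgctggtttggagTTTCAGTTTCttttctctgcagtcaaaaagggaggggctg
Trim5: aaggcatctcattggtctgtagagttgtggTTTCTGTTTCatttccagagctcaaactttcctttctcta
Trim12c: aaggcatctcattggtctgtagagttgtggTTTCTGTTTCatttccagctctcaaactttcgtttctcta
Trim30a has 2 annotated starts, at chr7:104465190-104465259 and chr7:104446084-104446153, both on the minus strand and each with a match:
Trim30a, first start: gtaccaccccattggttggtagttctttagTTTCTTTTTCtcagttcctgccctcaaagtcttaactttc
Trim30a, second start: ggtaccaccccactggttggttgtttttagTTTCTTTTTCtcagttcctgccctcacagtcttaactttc
Trim26, chr17:36836956-36837031, plus strand, has 2 overlapping matches upstream of the start:
Trim26: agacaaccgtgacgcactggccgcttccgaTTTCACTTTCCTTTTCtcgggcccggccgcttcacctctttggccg

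RefSeq windows were found for 37 of the 49 members. Of the 11 responsive members with a window, 6 (54.5%) held an ISRE core, beside 2 of 19 constitutive members (10.5%), 0 of 7 below the filter and 1079 of all 27025 genes with a window (3.99%). Those 27025 include genes that were not tested here. The 6 include Trim5 and Trim34a, which passed the filter only through libraries with IFN-γ. The stretches of Trim5 and Trim12c printed above are nearly the same, so these matches are not independent of each other. The 2 constitutive members with a match were Trim12a, a close relative of Trim12c, and Trim2. The GAS letters TTCNNNGAA, which read the same on both strands, were in 1 responsive member (Trim46), 1 constitutive member (Trim45), 3 members below the filter (Trim15, Trim30c and Trim38) and 9.55% of all genes. A match is a description of the letters in this window and not a bound site.

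Trim28, the corepressor recruited by KRAB zinc finger proteins, was the member with the highest level, at a mean of 104.9 FPKM over the 12 libraries, with a range from 91.7 to 119 FPKM. Trim27, a RING ligase of endosomes and the nucleus, followed at 48.6 FPKM, and Trim47, Trim35 and Trim59 lay between 33.8 and 37.8 FPKM. All 5 were constitutive. Their ranges over libraries separated Trim28 from every other member, while those of Trim47, Trim35 and Trim59 overlapped.

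**Figure D1:**
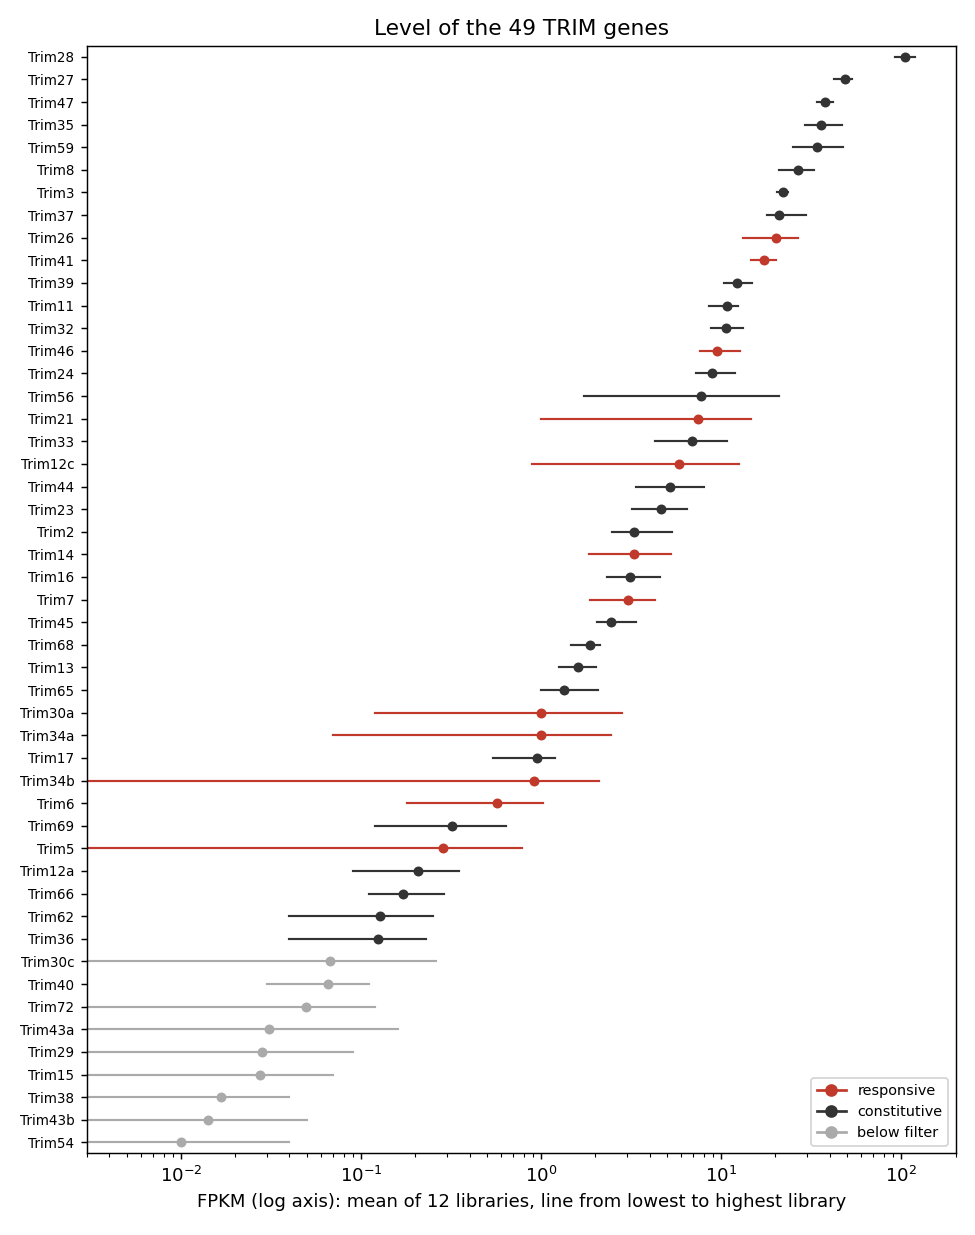
FPKM on a log axis of the 49 members, with the mean of 12 libraries as a point and a line from the lowest to the highest library; a line that reaches the left edge includes a library at 0. Trim28 is at the top at 104.9 FPKM, the responsive members in red begin at rank 9 with Trim26, and Trim21, Trim12c and Trim56 have long lines among the better expressed genes.

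Summed over the 12 responsive members, the level rose from 46.8 ± 2.9 FPKM (SD, n = 3) in siR_Ctrl to 88.0 ± 5.9 FPKM with IFN-γ, and from 49 ± 3.2 to 96.7 ± 3.3 FPKM in siR_Nostrill. These sums describe genes chosen by the same contrast. The 28 constitutive members summed to 440 ± 25 FPKM in siR_Ctrl and 405 ± 23 FPKM with IFN-γ, and to 406 ± 21 and 400 ± 11 FPKM in siR_Nostrill, so that they remained the larger part of the family's FPKM in every group.

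A cluster of related genes on chromosome 7, known for restriction of retroviruses and for its expansion in rodents, held most of the large changes. Its 8 listed members lie within chr7:104218795-104465193, a span of 246 kb, in the order Trim6, Trim34a, Trim5, Trim12a, Trim34b, Trim12c, Trim30c and Trim30a. Of the 7 that were tested, 6 rose with IFN-γ averaged over both siRNAs, beside 6.81% of all genes higher, with a list median log2 fold change of 2.89 beside -0.02 over all genes. Trim12a was the tested gene of the cluster that did not pass, and Trim30c was below the filter. The 6 include Trim5, Trim34a and Trim34b, which, as said above, passed the filter only through libraries with IFN-γ.

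Trim34a, a RING ligase next to Trim5, had 0.10, 0.12 and 0.07 FPKM in siR_Ctrl and 1.35, 1.40 and 1.41 FPKM in siR_Ctrl + IFN-γ. In siR_Nostrill it had 0.0900, 0.190 and 0.240 FPKM, and with IFN-γ 2.33, 2.23 and 2.43 FPKM. The groups with and without IFN-γ were far apart under both siRNAs. Its averaged log2 fold change was 3.82 ± 0.17 (SE), the largest of the family, with an adjusted p of 1.41e-08 in edgeR's test.

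Its copy in the same cluster, Trim34b, had 0.210, 0.0700 and 0.18 FPKM in siR_Ctrl against 1.17, 1.40 and 1.97 FPKM with IFN-γ. It had 0, 0.170 and 0.270 FPKM in siR_Nostrill against 1.28, 2.09 and 2.09 FPKM with IFN-γ. Again no library without IFN-γ reached one with it. The averaged log2 fold change was 3.40 ± 0.36 (SE, adjusted p 5.21e-05). Read counts of both genes were not whole numbers in 9 of 12 libraries, so some reads were given to a gene in part and the split between Trim34a and Trim34b is uncertain. With the reads of both genes added together, the averaged log2 fold change was 3.67 ± 0.20 (SE, adjusted p 1.08e-07).

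Trim30a is known as an inhibitor of Toll-like receptor signalling to NF-κB in macrophages. It had 0.130, 0.120 and 0.130 FPKM in siR_Ctrl and 1.32, 0.970 and 1.66 FPKM in siR_Ctrl + IFN-γ. It had 0.190, 0.190 and 0.230 FPKM in siR_Nostrill and 1.85, 2.81 and 2.44 FPKM with IFN-γ. All 4 groups were separate from each other, in the order siR_Ctrl, siR_Nostrill, siR_Ctrl + IFN-γ and siR_Nostrill + IFN-γ. The IFN-γ effect was 3.49 ± 0.17 on the log2 scale (SE, adjusted p 3.50e-08). The low levels rest on few reads, 8 in each siR_Ctrl library.

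Trim12c, one of the mouse relatives of the retroviral restriction factor TRIM5, was the most abundant gene of the cluster. It had 1.77, 0.890 and 1.36 FPKM in siR_Ctrl and 8.66, 9.94 and 10.6 FPKM in siR_Ctrl + IFN-γ. It had 1.41, 1.42 and 1.60 FPKM in siR_Nostrill and 9.78, 12.5 and 9.77 FPKM with IFN-γ. Libraries with and without IFN-γ did not overlap, and the levels with IFN-γ overlapped between the siRNAs. The averaged log2 fold change was 2.89 ± 0.14 (SE, adjusted p 3.07e-08).

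Trim5 itself stayed below 1 FPKM. It had 0.110, 0 and 0.130 FPKM in siR_Ctrl and 0.310, 0.290 and 0.430 FPKM with IFN-γ, then 0.0900, 0.0300 and 0.0700 FPKM in siR_Nostrill and 0.780, 0.610 and 0.570 FPKM with IFN-γ. Each library with IFN-γ was above each library without it. Its reads were at most 3.69 in any library without IFN-γ and from 8.06 to 17.02 with it. Its averaged log2 fold change was 2.38 ± 0.35 (SE, adjusted p 7.82e-04), and it passed in siR_Nostrill (2.85 ± 0.48, adjusted p 0.00311) but not in siR_Ctrl (1.90 ± 0.51, adjusted p 0.0574). The difference between these effects did not pass (0.94 ± 0.80, adjusted p 0.508).

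Trim12a had 0.170, 0.110 and 0.210 FPKM in siR_Ctrl and 0.320, 0.140 and 0.350 FPKM with IFN-γ. In siR_Nostrill it had 0.0900, 0.140 and 0.120 FPKM, and with IFN-γ 0.160, 0.310 and 0.350 FPKM. The groups overlapped in siR_Ctrl and did not in siR_Nostrill. Its read counts, however, gave an averaged log2 fold change of -0.19 ± 0.27 (SE, adjusted p 0.801). The deposited FPKM and the deposited counts thus differed in direction for this gene, whose counts were not whole in any of the 12 libraries. When the reads of Trim12c, Trim12a and Trim5 were summed, the averaged log2 fold change was 2.68 ± 0.13 (SE, adjusted p 2.47e-08). Reads assigned to single genes of this trio are uncertain, and the rise of the sum does not rest on that assignment. Most of the summed reads were those given to Trim12c, with 1878 in siR_Ctrl + IFN-γ against 27.1 for Trim5 and 46.3 for Trim12a. The sum thus says little about Trim5 or Trim12a.

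Trim6, at the edge of the cluster, makes unanchored ubiquitin chains used in type I interferon signalling. It had 0.440, 0.320 and 0.210 FPKM in siR_Ctrl and 0.740, 0.530 and 0.690 FPKM with IFN-γ, and 0.340, 0.180 and 0.350 FPKM in siR_Nostrill and 1.03, 0.960 and 1.03 FPKM with IFN-γ. The groups did not overlap under either siRNA, although the gap in siR_Ctrl was narrow. The averaged log2 fold change was 1.54 ± 0.17 (SE, adjusted p 6.40e-05). In siR_Ctrl alone the call in edgeR (adjusted p 0.00552) was lost with limma on log2(FPKM + 1), which gave an adjusted p of 0.0902. The same limma test on all genes kept it (adjusted p 0.0397). Trim30c was the remaining cluster gene, with 0 to 0.260 FPKM.

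**Figure D2:**
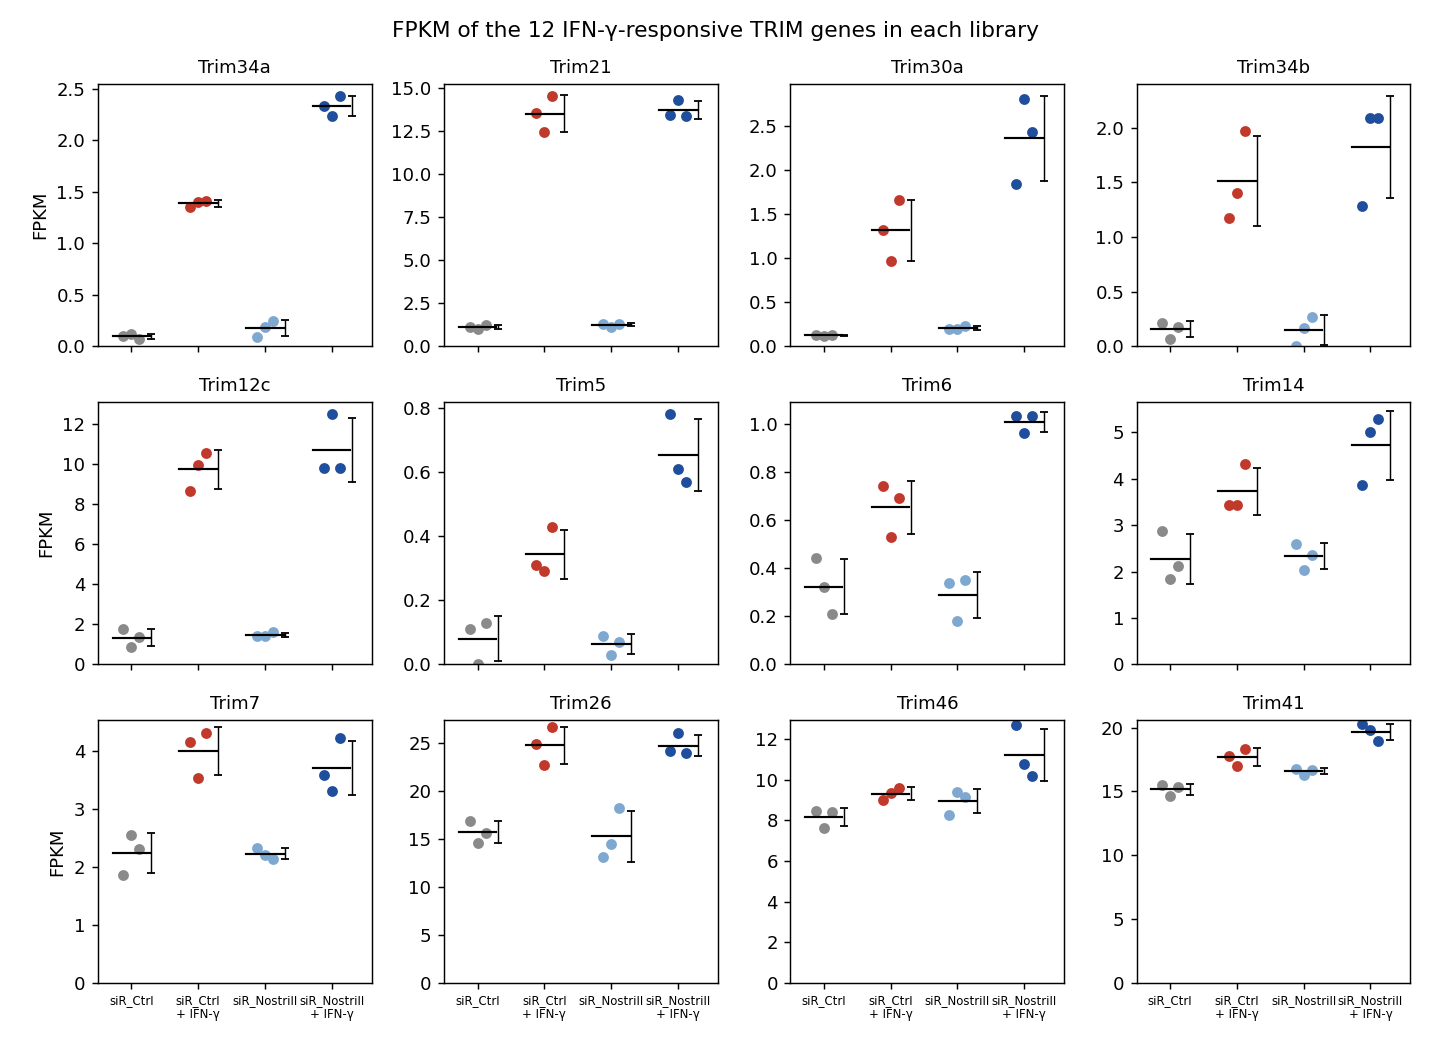
FPKM of the 12 responsive members in each of the 12 libraries on linear axes that start at 0, with black lines for the mean and bars for the SD of 3 libraries. In FPKM all 12, which were chosen by their IFN-γ effect, are separated by IFN-γ under both siRNAs. For Trim34a, Trim30a, Trim6, Trim5, Trim41 and Trim46, the FPKM points of siR_Nostrill + IFN-γ all lie above those of siR_Ctrl + IFN-γ. No member passed edgeR's test of that comparison, and there the counts of Trim41 gave a log2 fold change of 0.01 ± 0.08 (SE, adjusted p 0.972).

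Outside the cluster, 3 of 5 tested members of a list of other interferon-linked TRIM genes rose (Trim21, Trim14 and Trim26), beside 6.81% of all genes higher, while Trim56 and Trim69 did not pass and Trim38 was below the filter. Trim21, a cytosolic Fc receptor that sends antibody-bound virus to the proteasome, had 1.11, 1.0 and 1.24 FPKM in siR_Ctrl and 13.6, 12.5 and 14.6 FPKM with IFN-γ. It had 1.30, 1.14 and 1.32 FPKM in siR_Nostrill and 13.5, 14.3 and 13.4 FPKM with IFN-γ. Replicates were close together, and the siRNAs overlapped in each state. Its averaged log2 fold change of 3.55 ± 0.07 (SE, adjusted p 1.56e-11) had the smallest adjusted p of any member.

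Trim14, an adaptor at mitochondria that lacks a RING finger, had 2.88, 1.84 and 2.11 FPKM in siR_Ctrl and 3.43, 3.44 and 4.31 FPKM with IFN-γ. In siR_Nostrill it had 2.60, 2.04 and 2.36 FPKM, and with IFN-γ 3.87, 5.0 and 5.29 FPKM. The groups were separate, with an averaged log2 fold change of 1.12 ± 0.11 (SE, adjusted p 2.25e-05). Its call in siR_Ctrl (1.05 ± 0.15, adjusted p 0.00119) was lost with limma on log2(FPKM + 1), where the adjusted p was 0.0579. It was the 1 member to rise among 4 tested TRIM genes without a RING finger, beside 6.81% of all genes higher, and Trim16, Trim44 and Trim66 did not pass. Trim14 reads were also not whole in any library.

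Trim26, which lies in the major histocompatibility region of chromosome 17 and has been linked to turnover of IRF3, was already at 16.9, 14.6 and 15.7 FPKM in siR_Ctrl and reached 24.9, 22.8 and 26.7 FPKM with IFN-γ. It had 13.2, 14.5 and 18.3 FPKM in siR_Nostrill and 24.2, 26.1 and 24.0 FPKM with IFN-γ. The change was modest on the log2 scale (0.70 ± 0.07 SE, adjusted p 1.98e-05), yet the groups did not overlap. Its neighbours Trim15, 1.3 kb away, and Trim40 were both below the filter, with at most 0.110 FPKM in any library.

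Of 14 tested members in a list of other TRIM genes that act on immune signalling, Trim7 and Trim41 rose, beside 6.81% of all genes higher, and the median log2 fold change of the list was -0.06 beside -0.02 over all genes. They are adjacent on chromosome 11, with 7.9 kb between chr11:48806403-48818199 (Trim41) and chr11:48826138-48851192 (Trim7). Trim7, first known as a partner of glycogenin, had 1.86, 2.54 and 2.31 FPKM in siR_Ctrl and 4.15, 3.53 and 4.30 FPKM with IFN-γ. It had 2.32, 2.21 and 2.13 FPKM in siR_Nostrill and 3.58, 3.30 and 4.22 FPKM with IFN-γ. The groups did not overlap (0.83 ± 0.12 SE, adjusted p 6.01e-04). In siR_Nostrill alone the call (0.78 ± 0.17, adjusted p 0.0159) was lost without siR_Nostrill replicate 1 (adjusted p 0.0540), without siR_Nostrill replicate 3 (0.0715) or without siR_Nostrill + IFN-γ replicate 3 (0.0649).

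Trim41 had 15.5, 14.7 and 15.4 FPKM in siR_Ctrl and 17.8, 17.0 and 18.3 FPKM with IFN-γ, and 16.8, 16.3 and 16.7 FPKM in siR_Nostrill and 20.3, 19.8 and 19.0 FPKM with IFN-γ. These FPKM groups were separate, but the read counts, which were tested, overlapped under both siRNAs. Reads were 816, 700 and 762 in siR_Ctrl against 867, 781 and 973 with IFN-γ. In siR_Nostrill they were 710, 734 and 854 against 925, 886 and 827 with IFN-γ. The log2 fold change was only 0.20 ± 0.06 (SE, edgeR adjusted p 0.0496), just inside the threshold. The call held without siR_Ctrl replicate 1 (adjusted p 0.0407) or siR_Ctrl + IFN-γ replicate 2 (0.0381). It was lost without any 1 of the other 10 libraries (0.0619 to 0.124). Trim46, a microtubule-bundling protein of the axon's initial segment, had 8.48, 7.65 and 8.40 FPKM in siR_Ctrl and 8.99, 9.37 and 9.61 FPKM with IFN-γ, and 8.28, 9.40 and 9.16 FPKM in siR_Nostrill and 12.7, 10.8 and 10.2 FPKM with IFN-γ. Its averaged log2 fold change was 0.29 ± 0.07 (SE, adjusted p 0.0192), and in edgeR's test neither gene passed within a single siRNA. Other settings called them there. Both passed in siR_Ctrl with the length trend removed. In siR_Nostrill, Trim46 passed with DESeq2 and Trim41 with limma on all genes. Of the microtubule-binding list Trim46 thus rose, beside 6.81% of all genes higher, and the other tested gene, Trim36, did not pass.

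**Figure D3:**
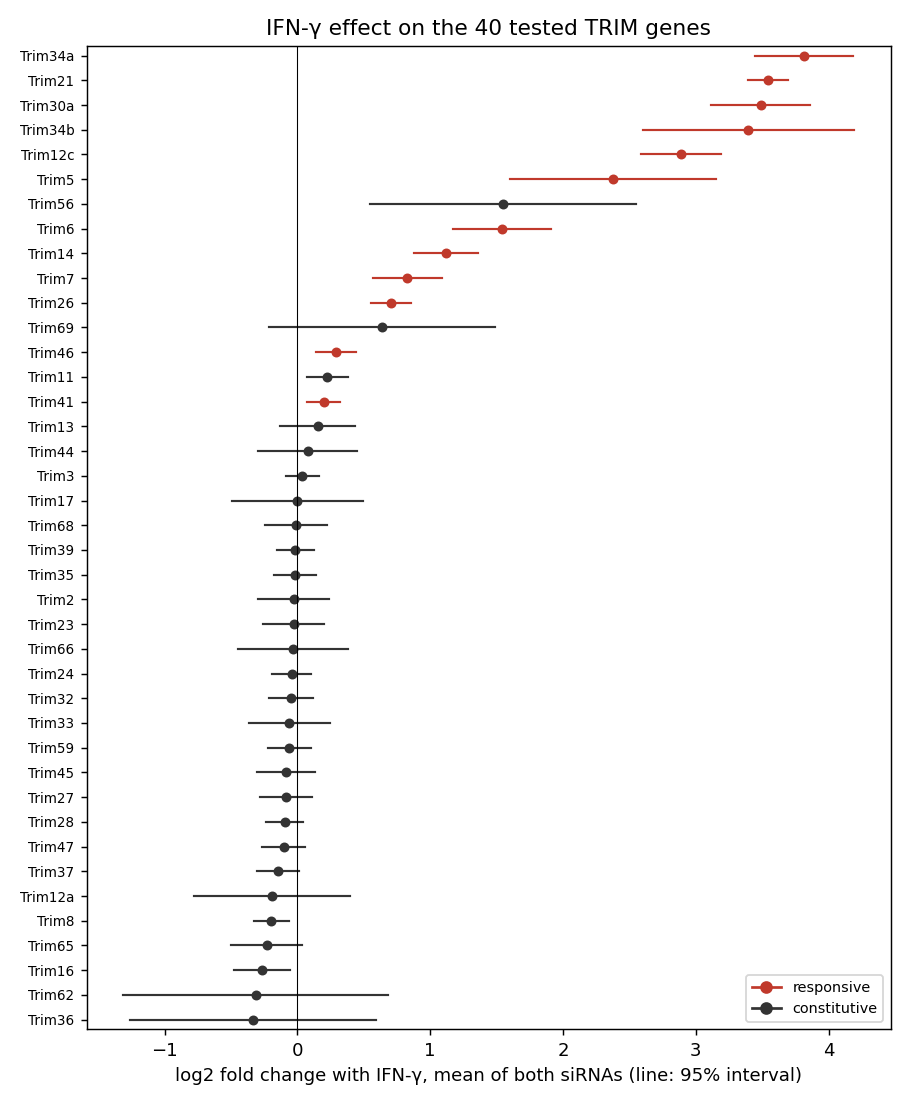
Log2 fold change with IFN-γ, averaged over both siRNAs, of the 40 tested members in order of size, with 95% intervals as lines. The responsive members run from 0.20 (Trim41) to 3.82 (Trim34a), and Trim56 at 1.55 is a constitutive member by the rule with an interval from 0.54 to 2.55.

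Within siR_Ctrl cells 9 members rose and 0 fell (22.5% of the tested members beside 5.45% of all genes, 4.71% higher and 0.748% lower), and within siR_Nostrill cells 10 rose and 0 fell (25% beside 6.78% of all genes, 5.24% higher and 1.55% lower). The 9 were Trim34a, Trim21, Trim30a, Trim34b, Trim12c, Trim6, Trim14, Trim7 and Trim26, and the tenth in siR_Nostrill was Trim5. These counts use the libraries that also defined the responsive class. Some other settings called members lower as well. With the length trend removed these were Trim16 and Trim8 in siR_Nostrill. With the replicate block added to that, they were Trim37, Trim45 and Trim8 in siR_Nostrill and Trim59 in siR_Ctrl. The covariate given for Trim56 below called Trim16, Trim37 and Trim8 lower in siR_Nostrill and Trim59 in siR_Ctrl. The test of whether the IFN-γ effect differed between the siRNAs called 0 members and 0 of 11900 genes (0% of all genes), with 3 members at an unadjusted p under 0.05, beside 10.7% of all genes, and 0 members in DESeq2 and in limma. The 3 were Trim59 (0.53 ± 0.15, adjusted p 0.430), Trim45 (-0.61 ± 0.20, adjusted p 0.430) and Trim23 (0.57 ± 0.21, adjusted p 0.430), all constitutive. Across all genes this difference rose with transcript length (Spearman's rho 0.65), and with the length trend removed Trim59 was at 0.42, Trim45 at -0.84 and Trim23 at 0.35, again without a call.

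For the responsive members the difference between the siRNAs ran from -0.23 (Trim21) to 0.94 (Trim5) on the log2 scale, and 8 of the 12 had 95% intervals within 1 log2 unit of 0 on both sides. Trim34a was only just among these 8, with a lower bound of -0.99, and its edgeR p of 0.699 is larger than that interval implies. The widest intervals were those of Trim34b, from -1.73 to 2.10, and Trim5, from -0.81 to 2.70. For Trim21, the most precise of the strongly changed genes, the interval was -0.53 to 0.07.

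**Figure D4:**
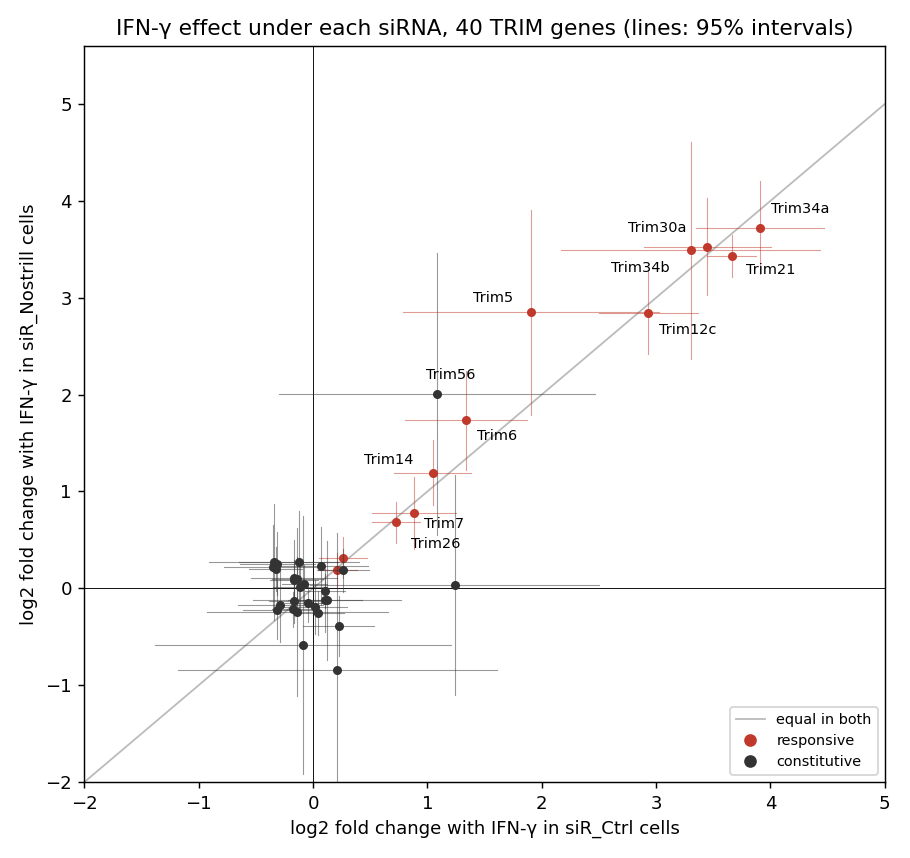
Log2 fold change with IFN-γ in siR_Ctrl cells (horizontal) and in siR_Nostrill cells (vertical) of the 40 tested members, with 95% intervals as lines and a grey line where both are equal. Trim34a lies at 3.91 and 3.73, Trim21 at 3.66 and 3.43 and Trim30a at 3.45 and 3.53, close to that line.

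Trim56, which acts in nucleic acid sensing and restricts RNA viruses, was just outside the threshold, with an averaged log2 fold change of 1.55 ± 0.46 (SE, adjusted p 0.0605). It had 10.5, 2.48 and 3.79 FPKM in siR_Ctrl and 10.7, 3.23 and 20.8 FPKM with IFN-γ. It had 1.75, 1.73 and 4.63 FPKM in siR_Nostrill and 15.2, 11.6 and 6.13 FPKM with IFN-γ. The groups overlapped in siR_Ctrl and did not in siR_Nostrill, and the spread within groups reached 6.17-fold in counts scaled to the library total, wider than in 99.0% of all genes tested. This spread moved with the ratio of summed TPM to summed FPKM of the libraries: from lowest to highest, Trim56 stood in the same order as the ratio within all 4 groups, although siR_Nostrill replicates 1 and 2 were nearly tied. The same held for Trim35 and Trim33, 3 of 40 tested members (7.5%) beside 11.4% of all genes. Trim56 passed as higher with DESeq2 (adjusted p 0.0279), with the length trend removed (0.00972) and with the replicate number as a block (0.0450), and also without siR_Ctrl replicate 1, siR_Ctrl + IFN-γ replicate 2 or siR_Nostrill replicate 3. Its place among the constitutive members thus holds for the rule used here and turns with the setting. With the ratio as a covariate, an alternative added after the data were seen, the averaged IFN-γ effect on Trim56 was 1.46 ± 0.11 (SE, adjusted p 2.23e-09). The size was thus close to that without the covariate and the SE smaller, and what sets the ratio was not tested.

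**Figure D5:**
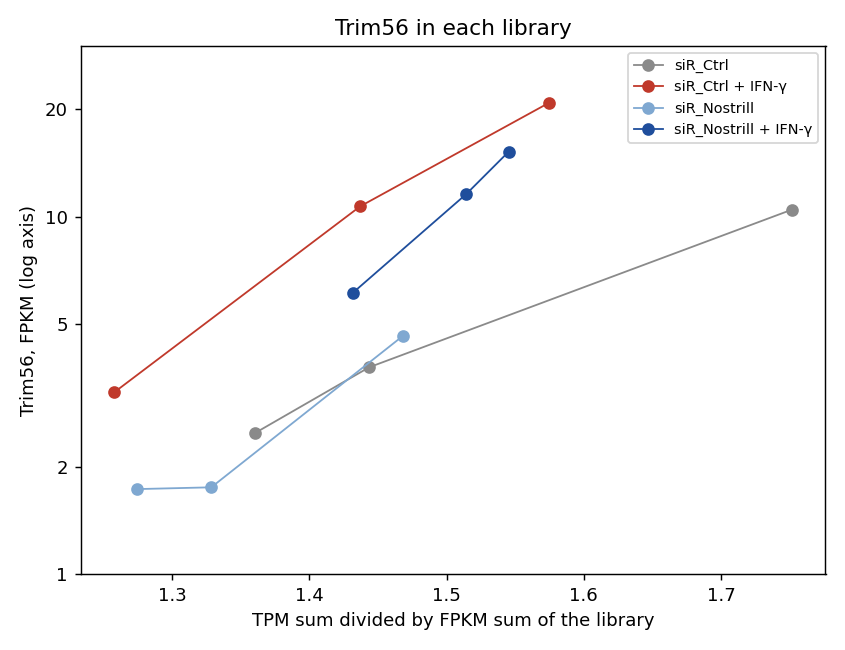
Trim56 level (FPKM, log axis) against the ratio of summed TPM to summed FPKM in each of the 12 libraries, with lines joining the 3 libraries of a group. Trim56 runs from 1.73 to 20.8 FPKM, climbs with the ratio in each group, and lies higher with IFN-γ than without at similar ratios.

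Over the 28 constitutive members the averaged IFN-γ effect ran from -0.34 to 1.55 on the log2 scale with a median of -0.05, and 6 were above 0. The 95% intervals of 24 of the 28 lay within 1 log2 unit of 0 on both sides, and those of Trim56, Trim36, Trim62 and Trim69 reached further. Beside Trim56, the members nearest the threshold were Trim8, a regulator of cytokine signalling (-0.20 ± 0.06, adjusted p 0.0663), and Trim11 (0.23 ± 0.07, adjusted p 0.0798). Both passed with DESeq2 (adjusted p 0.0116 for Trim8 and 0.0444 for Trim11) and with the length trend removed (0.0471 and 0.00721). Trim8 also passed without siR_Nostrill + IFN-γ replicate 1 and Trim11 without siR_Nostrill replicate 2. Trim16 passed as lower with the length trend removed (adjusted p 0.0213). None of the 4 chromatin corepressors passed, beside 9.21% of all genes, and at that share so short a list says little as a group. Trim28 was at -0.10 ± 0.06 (adjusted p 0.466), Trim24, a nuclear receptor coregulator, at -0.04 ± 0.07 (adjusted p 0.831), Trim33, an antagonist of SMAD4, at -0.06 ± 0.14 (adjusted p 0.887), and Trim66 at -0.03 ± 0.19 (adjusted p 0.962).

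Neither did the NHL-repeat genes, which include RNA-binding and cytoskeletal ligases of neurons and muscle: Trim2 (-0.03 ± 0.12), Trim3 (0.04 ± 0.06) and Trim32 (-0.05 ± 0.08). The membrane-anchored ligases Trim13 of the endoplasmic reticulum (0.15 ± 0.13) and Trim59 (-0.06 ± 0.07) did not pass either. Both lists are short beside the 9.21% of all genes called, and say little as groups. Trim27 (-0.09 ± 0.09), Trim47 (-0.10 ± 0.07), Trim35 (-0.02 ± 0.07), Trim37 (-0.15 ± 0.07), Trim39 (-0.02 ± 0.06), Trim23 (-0.03 ± 0.11), Trim45 (-0.08 ± 0.10), Trim65 (-0.23 ± 0.12) and Trim68 (-0.01 ± 0.11) were, beside Trim8, Trim11 and Trim62, the tested members of the immune-signalling list without a call. Trim68 lies 112 kb from Trim21 on chromosome 7 and stayed between 1.46 and 2.13 FPKM in all libraries. Trim16 (-0.27 ± 0.10), Trim44 (0.08 ± 0.17) and Trim17 (0.00 ± 0.23) completed the set with better precision, while Trim62 (-0.31 ± 0.45), Trim36 (-0.34 ± 0.42) and Trim69 (0.64 ± 0.39) had at most 18 reads in any library and intervals that reach beyond 1 log2 unit.

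The 9 members below the filter were Trim30c, Trim40, Trim72, Trim43a, Trim29, Trim15, Trim38, Trim43b and Trim54. Of these, Trim30c had 0, 3 and 0 reads in siR_Ctrl, 8, 3 and 11 with IFN-γ, 1 in each siR_Nostrill library, and 9, 21 and 8 with IFN-γ. The groups touched in siR_Ctrl and were separate in siR_Nostrill, and no fold is given at this depth.

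siR_Nostrill against siR_Ctrl without IFN-γ called 0 members beside 0.218% of all genes. At an unadjusted p under 0.05 there were 6 members (15%, beside 13.8% of all genes), and DESeq2 called 2 of the 29 members with an adjusted p (6.9%, beside 2.56% of all genes). The smallest p was that of Trim24, with 11.9, 9.55 and 10.2 FPKM in siR_Ctrl and 7.25, 7.48 and 8.58 FPKM in siR_Nostrill (-0.44 ± 0.09, edgeR adjusted p 0.125, DESeq2 adjusted p 0.00381). Trim59 had 47.3, 36.7 and 36.9 FPKM against 29.8, 27.3 and 31.9 FPKM (-0.42 ± 0.10, adjusted p 0.162, DESeq2 0.0230). Neither pair of groups overlapped. Trim2 followed (-0.58 ± 0.17, adjusted p 0.226), with 5.32, 3.11 and 3.66 FPKM against 2.46, 2.50 and 3.13 FPKM, which overlap, and without siR_Ctrl replicate 1 its log2 fold change was -0.35. Across all genes the log2 fold change of this comparison fell with transcript length (Spearman's rho -0.65), and with the length trend removed Trim24 was at -0.28 (adjusted p 0.209), Trim59 at -0.38 (adjusted p 0.0241) and Trim2 at -0.21 (adjusted p 0.302). Trim59 was then the 1 member called (2.5%, beside 2.48% of all genes). With the ratio of summed TPM to summed FPKM as a covariate, added after the data were seen, Trim24 (-0.37, adjusted p 0.00809), Trim59 (-0.30, adjusted p 0.0144) and Trim2 (-0.30, adjusted p 0.0313) passed, 3 of 40 members beside 554 of 11900 genes.

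With IFN-γ present, siR_Nostrill against siR_Ctrl again called 0 members, beside 0.429% of all genes, with 4 members at an unadjusted p under 0.05 (10%, beside 14.5% of all genes) and 2 calls in DESeq2 among the 34 members with an adjusted p (5.88%, beside 5.46% of all genes). The share of members called by DESeq2 was thus near that of all genes. Trim30a was 0.79 ± 0.18 higher on the log2 scale (adjusted p 0.0748, DESeq2 0.0243) and Trim34a 0.69 ± 0.16 higher (adjusted p 0.0862, DESeq2 0.0210), and their groups, given above, did not overlap. Trim6 followed at 0.53 ± 0.21 (adjusted p 0.270), also without overlap, and the fourth was Trim16 (-0.33 ± 0.14, adjusted p 0.292). With the length trend removed, Trim30a (adjusted p 0.0188) and Trim34a (adjusted p 0.0331) passed as higher, and Trim16 (0.0168), Trim2 (0.0161) and Trim32 (0.0303) as lower, which is 12.5% of the tested members beside 9.88% of all genes. Limma on log2(FPKM + 1) called Trim34a (adjusted p 0.0236). The ratio covariate, added after the data were seen, called 7 of 40 members, beside 2633 of 11900 genes, which is a larger share. The 7 members were Trim30a and Trim34a as higher and Trim16, Trim2, Trim24, Trim32 and Trim37 as lower. Without IFN-γ, Trim30a (0.71 ± 0.33, adjusted p 0.359) and Trim34a (0.88 ± 0.36, adjusted p 0.378) were estimated higher too, from few reads. Summed with their copies, Trim34a with Trim34b gave 0.53 ± 0.21 with IFN-γ (adjusted p 0.269) and Trim30a with Trim30c 0.79 ± 0.20 (adjusted p 0.0952).

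Of the other cluster genes in this comparison, Trim5 was at 0.76 ± 0.36 (adjusted p 0.362), Trim34b at 0.21 ± 0.35, Trim12c at 0.07 ± 0.17 and Trim12a at -0.43 ± 0.39, all with intervals that overlap those of Trim30a and Trim34a, and differences between cluster genes were not tested. The FPKM groups of Trim5, given above, did not overlap either. Trim21, outside the cluster, was at -0.04 ± 0.08 with an interval from -0.22 to 0.14. The median over the 7 tested cluster genes was 0.53 with IFN-γ and 0.13 without, beside medians of 0.00 and 0.01 over all genes.

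Of TRIM proteins under other symbols, Pml, the organiser of nuclear bodies, rose with IFN-γ in siR_Ctrl (0.61 ± 0.11, adjusted p 0.00538) and in siR_Nostrill (0.84 ± 0.11, adjusted p 4.57e-04), while Mid1 and Mid2 did not pass and Bspry was below the filter. Of all genes, 4.71% were called higher in siR_Ctrl and 5.24% in siR_Nostrill. Of 8 ubiquitin-conjugating enzymes that serve TRIM ligases, Ube2d1 rose in the average over both siRNAs (0.42 ± 0.07, edgeR adjusted p 0.00181), beside 6.81% of all genes higher. Within siR_Nostrill it rose by 0.63 ± 0.10 (adjusted p 0.00164), beside 5.24% of all genes higher. Ube2d1 did not pass in siR_Ctrl (0.21 ± 0.10, adjusted p 0.376), the difference between these effects had an adjusted p of 0.430, and the other 7 enzymes did not pass for an IFN-γ effect under either siRNA.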

How the data were processed

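RNA of 12 libraries in 4 groups of 3 was analysed. For each gene and library the authors deposited FPKM, TPM and an estimated count, the last not normalized and partly not whole. Per the study's methods, reads were filtered with SOAPnuke 1.5.2 and aligned to GRCm38.p6 with HISAT2 2.0.4 and Bowtie2 2.2.5. The counting tool and its use of strand are not given in the sources used here, so reads of overlapping genes cannot be told apart.

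After rounding, a single edgeR 4.0.16 model (R 4.3.3) was fitted to the 12 libraries with TMM scaling, the default filter on low counts and quasi-likelihood tests, with Benjamini-Hochberg adjustment over 11900 genes. Alternatives were DESeq2 1.42.0, limma 3.58.1 on log2(FPKM + 1) or log2(FPKM + 0.1), other filters and scalings, a replicate block, removal of the length trend, and each library left out. A covariate for the ratio of TPM to FPKM and summed copies were added after the data were seen. The test was also run on simulated data, and the outcome is not given here. Named genes were all members called in a comparison, the 3 smallest p-values where fewer than 3 were called, and the 5 highest levels. Every tested member was also named once with its estimate. Members and lists were chosen with earlier results of these data known. The study describes biological triplicates, and replicates differed by more than sampling noise (chi-square per degree of freedom 6.46 to 96.5). Columns of the authors' FPKM are scaled for length, so levels were compared between genes in FPKM only. Intervals cover 95%.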

Additional observations from a re-analysis of the deposited data

How the results depend on the processing

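For the members called in a comparison and those with its smallest p-values, no direction reversed in the 935 values recomputed, and 284 counts were recomputed. Other members were not followed through every setting. Leaving out 1 library gave 11 to 14 members for IFN-γ averaged over both siRNAs (883 to 1347 genes), 9 in siR_Ctrl (489 to 589 genes), 9 to 12 in siR_Nostrill (491 to 1138 genes, lowest without siR_Nostrill replicate 2 at 491 and without siR_Nostrill + IFN-γ replicate 2 at 500), and 0 members for both siRNA comparisons (0 to 37 genes without and 0 to 72 with IFN-γ) and for the interaction (0 genes). Filtering at a mean of 5 CPM, with fewer genes tested, left 5, 5 and 7 of 26 tested members called in siR_Ctrl, siR_Nostrill and the average, beside 508, 705 and 924 of 9868 genes, and 105 genes for siR_Nostrill with IFN-γ. Replicate numbers did not pair the libraries (same-number correlations of deviations from -0.66 to 0.87, 8 of 18 above 0.1, and 5 of 12 libraries closest to their own number). A replicate block kept the counts of 9, 10 and 12 members but gave 32 genes for siR_Nostrill with IFN-γ, and in the average Trim41 was lost (adjusted p 0.0675) and Trim56 gained (0.0450). Trim41 was also lost with DESeq2's size factors (adjusted p 0.0591) and no filter (0.0783), and Trim46 with limma on all genes (0.0572). Fitting only the groups compared gave 341 genes in siR_Ctrl and 1997 in siR_Nostrill for IFN-γ, and 0 for siR_Nostrill without and with IFN-γ (1143 and 1563 at an unadjusted p under 0.05). That fit equals the test used for the average and the interaction, which need all groups. The cause of these shifts was not tested.

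DESeq2 called 1330 genes for IFN-γ in siR_Nostrill, 265 for siR_Nostrill without IFN-γ (2 members) and 596 with it (2 members). Removing the length trend gave 1286, 1736 and 1980 genes for IFN-γ in siR_Ctrl, siR_Nostrill and the average, 295 genes and 1 member for siR_Nostrill without IFN-γ, and 1176 genes and 5 members with it. Together with the replicate block these were 1416, 2179, 2195, 402 (1 member) and 1694 (5 members), and 77 genes for the interaction. With the TPM to FPKM ratio as a covariate, chosen after the data were seen, they were 2006 (14 members), 2403 (16), 3579 (17), 554 (3) and 2633 (7), and 1 for the interaction. For siR_Nostrill with IFN-γ, no filter gave 30 genes, and limma gave 135 with a pseudocount of 1 (1 member), 114 with 0.1 and 118 on all genes (1 member). For siR_Nostrill without IFN-γ, limma on all genes gave 17 genes. Depth limits Trim5, Trim34b, Trim36, Trim62, Trim69 and the members below the filter.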
